A study of Mus musculus with 4 samples.

Results

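Of the 19118 autosomal windows of 500 bp that held at least 16 CpG cytosines measured in every liver, 1348 lay inside a gene body. A window was placed in a gene body when it was inside a RefSeq transcript of mm10 and more than 2 kb from every transcription start site (TSS). The other dense windows were 17121 near a TSS, 626 intergenic windows and 23 that crossed the edge of a transcript. The gene-body windows were 7.05% of the dense windows, held 36392 cytosines and lay in 982 genes. The cytosines were measured by enhanced reduced representation bisulfite sequencing (ERRBS), in which enzyme-cut, CpG-rich fragments are sequenced after bisulfite has turned unmethylated cytosines into uracils, which are read as thymines. Each value is the percent of reads at a cytosine that kept a C, which counts 5-methylcytosine and 5-hydroxymethylcytosine together. The window value is the mean over its cytosines, with each strand of a CpG as its own cytosine.

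Whole livers came from 4 male mice at 6 to 8 weeks of age, 1 library each. Mixed-1 and Mixed-2 had an undefined background that includes C57BL/6J and other strains, while B6-1 and B6-2 were C57BL/6 mice. Where a value is given for each of the 4 mice, the Mixed mice come first and mouse 1 comes before mouse 2. The mice of the 2 backgrounds were kept at different institutions and their libraries differed in depth, so strain, housing and depth cannot be told apart. Whole liver holds hepatocytes and other cell types, and a value between the extremes can come from a mixture of cells, of alleles or of molecules within a cell. The median coverage of the cytosines in gene-body windows was 46, 50, 66 and 62 reads in the 4 mice. Summed over the cytosines of a gene-body window, the coverage had a median of 998.5, 1104, 1514 and 1450. In this sum a read counts once at each cytosine it covers.

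In mammals most CpGs carry methyl groups, and clusters of CpGs at promoters, the CpG islands, are the main exception. Clusters of CpGs also occur far from promoters, in exons that encode proteins and in introns. Some of these intragenic islands are free of methylation and can act as alternative promoters or regulatory elements, whereas others are methylated like the body of the gene around them. Methylation of gene bodies is a common feature of transcribed genes, and it depends in part on DNMT3B.

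Windows were called unmethylated below 20%, intermediate from 20% to 80% and methylated above 80%. The 6 stretches of 300 bases given here stand for the 3 classes. They are the central parts of the first 2 windows in each class by fixed rules, which were the most cytosines for the outer classes and a mean nearest 50% for the intermediate class. Each is the plus strand of mm10 from the RefSeq reference, and capitals mark the CpGs.
Ahdc1, unmethylated, chr4:133039100-133039399: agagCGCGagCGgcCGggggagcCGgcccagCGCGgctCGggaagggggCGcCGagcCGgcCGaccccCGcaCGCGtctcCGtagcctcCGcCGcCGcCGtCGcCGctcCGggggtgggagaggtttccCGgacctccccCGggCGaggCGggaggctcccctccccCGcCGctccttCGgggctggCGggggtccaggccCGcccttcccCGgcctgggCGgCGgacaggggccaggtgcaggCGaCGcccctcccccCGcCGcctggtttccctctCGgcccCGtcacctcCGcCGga
Zfp316, unmethylated, chr5:143253600-143253899: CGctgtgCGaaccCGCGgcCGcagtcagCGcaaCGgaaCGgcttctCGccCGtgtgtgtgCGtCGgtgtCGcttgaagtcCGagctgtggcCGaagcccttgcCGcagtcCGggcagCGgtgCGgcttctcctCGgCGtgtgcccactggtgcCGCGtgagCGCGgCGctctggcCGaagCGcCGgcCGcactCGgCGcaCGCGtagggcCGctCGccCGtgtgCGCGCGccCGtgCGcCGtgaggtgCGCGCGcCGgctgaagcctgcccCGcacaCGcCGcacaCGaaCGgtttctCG
Msl3l2, intermediate, chr10:56115600-56115899: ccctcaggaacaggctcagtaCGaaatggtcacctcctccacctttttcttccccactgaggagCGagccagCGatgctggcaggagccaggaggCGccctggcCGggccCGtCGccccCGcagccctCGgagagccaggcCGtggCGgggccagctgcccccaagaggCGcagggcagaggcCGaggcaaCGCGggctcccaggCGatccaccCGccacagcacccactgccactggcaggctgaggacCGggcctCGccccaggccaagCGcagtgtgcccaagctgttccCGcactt
Gpc2, intermediate, chr5:138275600-138275899: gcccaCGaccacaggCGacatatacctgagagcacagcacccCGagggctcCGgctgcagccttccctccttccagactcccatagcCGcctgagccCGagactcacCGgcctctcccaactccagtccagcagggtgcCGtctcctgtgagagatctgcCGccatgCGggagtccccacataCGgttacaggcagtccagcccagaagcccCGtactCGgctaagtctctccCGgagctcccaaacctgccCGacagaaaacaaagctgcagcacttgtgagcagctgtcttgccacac
Zfpm1, methylated, chr8:122336100-122336399: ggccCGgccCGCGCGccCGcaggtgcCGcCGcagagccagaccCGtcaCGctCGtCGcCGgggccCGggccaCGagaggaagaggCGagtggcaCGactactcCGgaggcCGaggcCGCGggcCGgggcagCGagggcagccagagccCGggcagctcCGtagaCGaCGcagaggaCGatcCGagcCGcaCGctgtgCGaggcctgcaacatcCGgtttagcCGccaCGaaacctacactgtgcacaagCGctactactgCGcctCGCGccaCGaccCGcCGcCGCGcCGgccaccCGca
Dact1, methylated, chr12:71318100-71318399: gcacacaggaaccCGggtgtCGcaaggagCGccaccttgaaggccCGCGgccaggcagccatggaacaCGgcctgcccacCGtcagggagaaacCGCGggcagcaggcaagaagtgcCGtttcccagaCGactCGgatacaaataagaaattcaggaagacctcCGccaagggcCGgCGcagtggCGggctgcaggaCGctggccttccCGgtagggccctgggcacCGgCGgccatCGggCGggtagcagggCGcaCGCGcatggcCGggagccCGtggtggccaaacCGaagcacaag

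The stretch in an intron of Ahdc1, which encodes a protein with AT-hook DNA-binding motifs, had 43 CpGs. Its 65 measured cytosines averaged 0.941%, 0.788%, 0.700% and 0.631% in the 4 mice. The coding stretch of Zfp316, a zinc finger gene, had 53 CpGs and averaged 10.1%, 10.9%, 13.7% and 12.3% in the same order. The Msl3l2 stretch had 21 CpGs and averaged 52.2%, 69.9%, 53.3% and 51.9%, with Mixed-2 above the other mice. The Gpc2 stretch, in a gene of the glypican family of cell-surface proteoglycans, had 15 CpGs and averaged 56.6%, 52.2%, 46.8% and 45.7%. Zfpm1 encodes FOG1, a cofactor of GATA factors, and its coding stretch had 45 CpGs, more than the Ahdc1 stretch. It averaged 87.4%, 86.6%, 80.4% and 84.0%. Dact1, a regulator of Wnt signaling, had 28 CpGs in its stretch and averaged 91.6%, 94.5%, 96.3% and 95.0%. The stretches of the methylated class had 28 and 45 CpGs, and those of the intermediate class were the poorest of the 6. That order follows from the rules of choice, since only the outer classes were picked for the most cytosines. Over all gene-body windows, the median was 28 CpGs in intermediate and 23 in methylated windows.

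**Figure D1:**
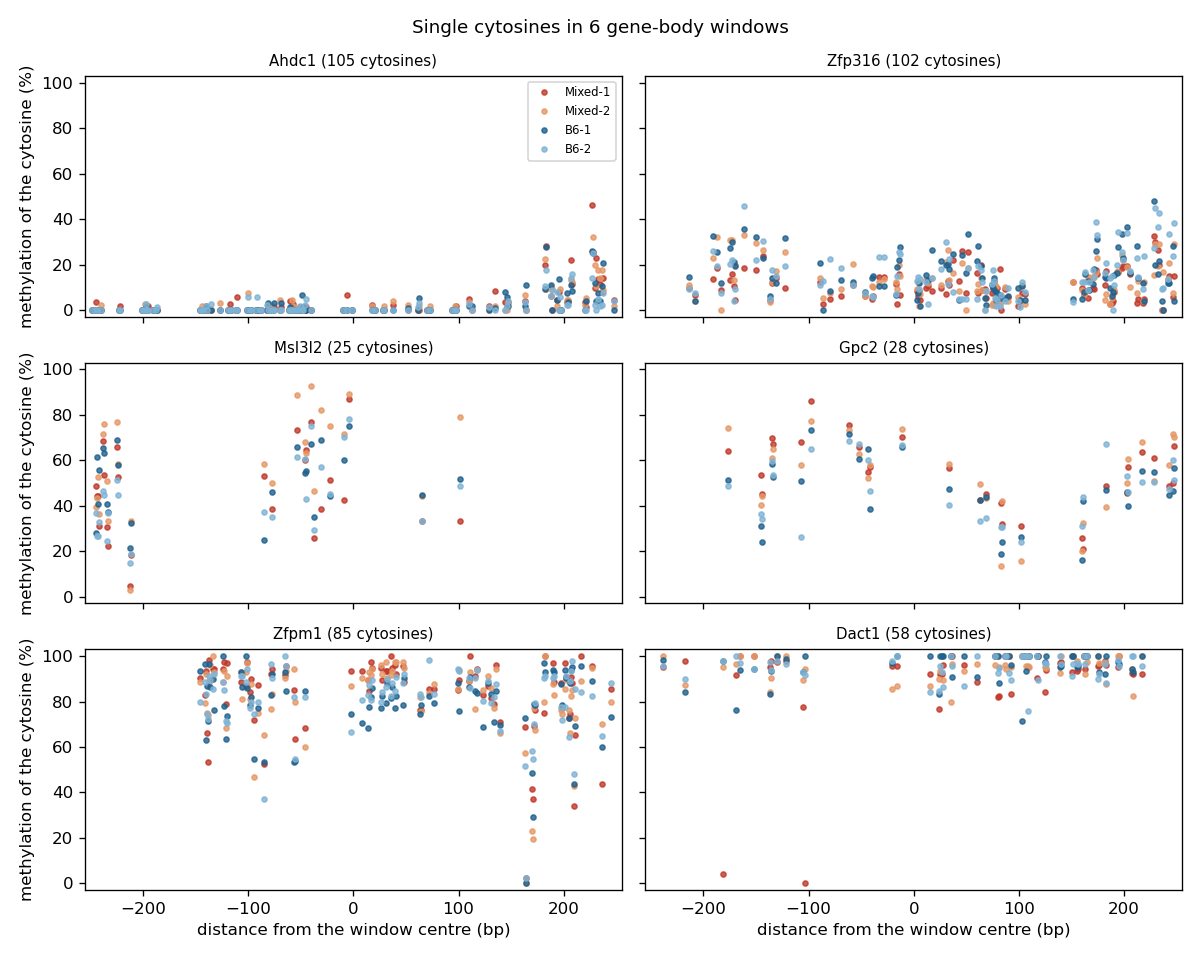
Percent methylation (y axis) of single cytosines by their distance in bp from the centre of the window (x axis), in the 6 windows whose central sequences are printed, with 1 color per mouse. The Ahdc1 cytosines lie at the bottom except near one edge, those of Dact1 lie near the top except 2 values of Mixed-1, and those of Msl3l2 and Gpc2 spread over the middle of the scale.

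The dense gene-body windows were spread over all 3 classes, whereas nearly all of those at gene starts were unmethylated. By the mean of the 4 mice, 684 windows (50.7%) were unmethylated, 252 (18.7%) intermediate and 412 (30.6%) methylated. Counted in each mouse, the shares were 50.6% ± 0.438, 18.6% ± 0.135 and 30.8% ± 0.370 (SD, n = 4 mice). Of the windows near a TSS, 97.8% were unmethylated and 0.567% methylated, and of the intergenic windows 74.3% were unmethylated and 13.3% methylated. The mean level of gene-body windows was 39.04%, 39.39%, 39.10% and 39.23% in the 4 mice. It was 2.03% ± 0.0409 near a TSS and 21.0% ± 0.117 in intergenic windows (SD, n = 4 mice). The median gene-body window, at 18.8%, stood far below the mean.

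**Figure D2:**
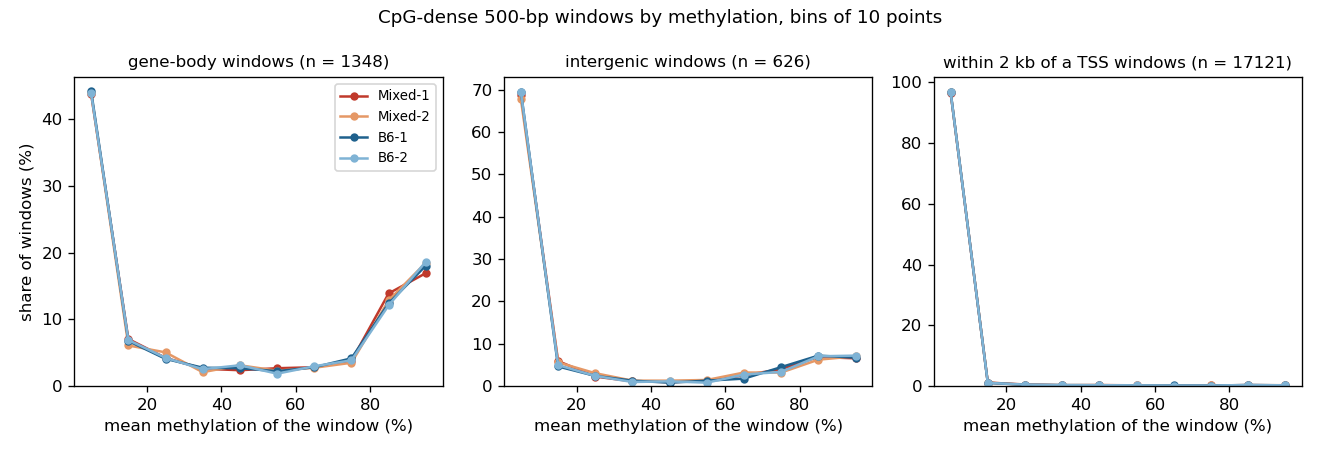
Share of windows (y axis, percent) by the mean methylation of the window (x axis, bins of 10 points) for gene-body, intergenic and TSS windows, with 1 line per mouse. Gene-body windows pile up at both ends, with 43.9% below 10% and 18.01% at 90% or above, while 96.7% of the windows near a TSS lie below 10%.

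Gene-body windows exceeded intergenic windows by 18.16, 18.50, 18.12 and 18.10 points in the 4 mice. The mean difference was 18.2 ± 0.190 points (SD, n = 4 mice), and it was above 0 in each mouse (exact two-sided sign test over the mice, p = 0.125, which no result from 4 mice can go below). The excess over windows near a TSS was 37.2 ± 0.169 points, also in 4 of 4 mice (exact sign test, p = 0.125). Exonic windows stood 22.8 points above intergenic windows and intronic windows 5.62 points above them. Within strata of the ratio of observed to expected CpGs, the difference to intergenic windows was 25.7 points below a ratio of 0.6, 15.8 from 0.6, 7.02 from 0.75 and 5.26 at 0.9 or more, in 4 of 4 mice each. These strata were chosen after the data were seen. The sign was thus shared by all strata, but the size of the difference was not.

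Most gene-body windows lay on exons, and exonic windows were more methylated than intronic ones. A window was exonic when over 50% of its cytosines were in an exon of any RefSeq transcript, which held for 988 windows and left 360 intronic. The mean level was 43.8% ± 0.155 in exonic and 26.6% ± 0.217 in intronic windows (SD, n = 4 mice). The difference was 17.04, 17.13, 17.44 and 17.15 points, or 17.2 ± 0.172, with the same sign throughout (exact sign test, p = 0.125). Of the exonic windows 45.5% were unmethylated and 34.8% methylated, against 65.0% and 18.9% of the intronic windows. The intermediate shares were closer, at 19.6% and 16.1%.

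Levels differed between kinds of exon. When each window was named by the annotation that held most of its cytosines, 860 windows were in coding exons and averaged 48.0% ± 0.187. The 350 windows in introns averaged 26.1% ± 0.218 and the 61 in 3-prime UTRs 25.7% ± 0.316, close to each other. The 61 windows in exons of non-coding transcripts averaged 8.79% ± 0.217, and 91.8% of them were unmethylated. The 16 windows in 5-prime UTRs averaged 16.6% ± 0.301 (SD, n = 4 mice throughout). Among exonic windows, the 459 that touched a last exon averaged 37.4%, and the 529 that did not averaged 49.3%. The former differed from the latter by -11.83, -11.83, -11.90 and -11.91 points in the 4 mice (mean -11.9 ± 0.0423, exact sign test, p = 0.125).

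**Figure D3:**
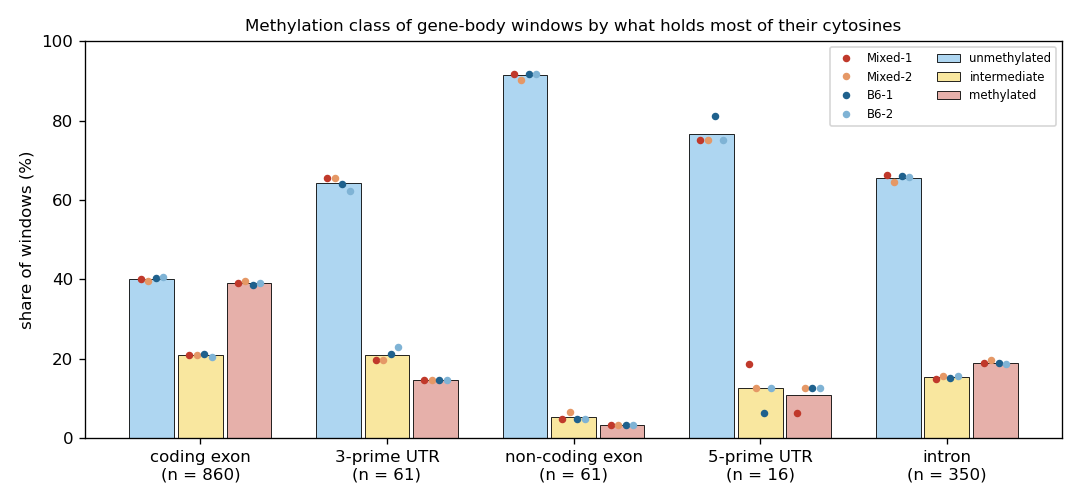
Share of gene-body windows in each methylation class (y axis, percent) by the annotation that held most of their cytosines (x axis). Bars are means of 4 mice and points are single mice. Coding exons hold nearly as many methylated as unmethylated windows (39.1% and 40.1%), whereas 91.4% of the windows in non-coding exons are unmethylated.

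Methylation rose with the distance from a TSS. The 241 windows at 2 to 3 kb averaged 20.6% ± 0.414, the 276 at 3 to 5 kb 32.1% ± 0.149, the 337 at 5 to 10 kb 42.4% ± 0.0680, the 274 at 10 to 20 kb 49.5% ± 0.411 and the 220 farther out 50.7% ± 0.324 (SD, n = 4 mice). The share of unmethylated windows went from 75.1% in the nearest group to 37.3% in the farthest. By place in the transcript, windows in the first 20% of its length averaged 18.4% and those in the last 20% averaged 46.9%. Levels did not climb at every step, since the stretch from 40% to 60% of the length averaged 38.0% and that from 60% to 80% averaged 37.2%. RefSeq is not the only record of starts. Of the unmethylated windows 41.1% lay within 2 kb of a transcript start in GENCODE vM21, against 38.1% of the intermediate and 28.2% of the methylated windows. With these left out, the remaining 855 windows were 46.7% unmethylated and 34.8% methylated, and exonic windows exceeded intronic ones by 21.4 ± 0.286 points in 4 of 4 mice.

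Windows richer in CpGs were less methylated, although all had passed the same minimum of measured cytosines. The 974 windows with under 40 CpGs averaged 48.2%, the 182 with 40 to 50 averaged 19.6%, the 112 with 50 to 60 averaged 15.6% and the 80 with 60 or more averaged 6.95%. A ratio of observed to expected CpGs below 0.6 went with a mean of 60.3%, and a ratio of 0.9 or more with 12.1%. Across the 1348 windows, Spearman's rho with the mean level was -0.51 for the number of CpGs, -0.49 for the observed to expected ratio, -0.34 for GC percent and 0.26 for the distance to a TSS. These are descriptions over windows of the same 4 libraries, and windows are not independent. Unmethylated, intermediate and methylated windows had medians of 37, 28 and 23 CpGs, GC contents of 64.3%, 62.2% and 60%, and distances of 5049, 7166 and 10072 bp to a TSS. Few windows were mostly repeats, since soft-masked bases filled over 50% of 0 unmethylated, 1 intermediate and 12 methylated windows. At the limit of the definition, the 177 windows with 16 cytosines averaged 61.0% and the 149 with 17 averaged 56.8%, while just outside it 189 windows with 15 averaged 57.6% and 256 with 14 averaged 65.7%.

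The difference between exons and introns was present in each stratum of CpG content and TSS distance examined. It was 23.9, 18.2, 15.6 and 3.82 points from the lowest to the highest observed to expected ratio. By distance it was 16.5 points at 2 to 5 kb, 14.6 at 5 to 20 kb and 28.5 beyond 20 kb, where 130 exonic windows averaged 62.4% and 90 intronic windows 33.9%. It was 14.8 and 13.8 points in the first and second part of the transcript. The sign was the same in 4 of 4 mice in each stratum. These strata were also chosen after the data were seen.

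**Figure D4:**
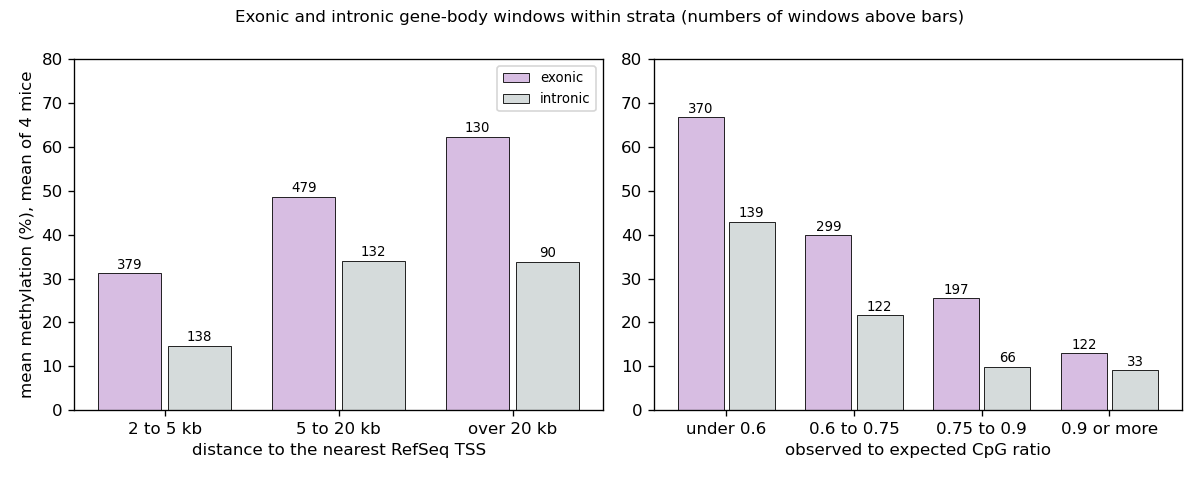
Mean methylation of exonic and intronic gene-body windows (y axis, percent, mean of 4 mice) within strata of the distance to the nearest RefSeq TSS and of the observed to expected CpG ratio (x axes), with the number of windows above each bar. The exonic bar is the higher one in all 7 strata, and the gap is smallest, 3.82 points, at a ratio of 0.9 or more.

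Among the unmethylated windows, the 6 with the most cytosines were in Ahdc1, Zfp316, Tbx1, Zfp771, Adgrb1 and Ttc28, with 93 to 105 cytosines each. The coding window of Tbx1, a T-box transcription factor, at chr16:18582000-18582499 was at 1.79%, 1.80%, 2.04% and 1.76% in the 4 mice. The coding window of Zfp771 was at 0.142%, 0.0550%, 0.0678% and 0.222%. Intronic windows of Adgrb1, an adhesion G protein-coupled receptor gene, and of Ttc28 averaged 0.515% and 0.202%, at 26566 and 14472 bp from the nearest TSS. These 4 windows carried few methylated reads in any mouse. GENCODE places a transcript start inside the Ahdc1 and Adgrb1 windows and within 2 kb of those of Ttc28 and Tbx1, where RefSeq has none. Such starts are not particular to this class. They also lie within 2 kb of the methylated windows of Zfpm1 and Plekhh3 described below. The same holds for the intermediate windows of Msl3l2, Rasip1, Sema6c and Fam171a2. The Ahdc1 window, at 2.69% ± 0.583 (SD, n = 4 mice), was less even, and single cytosines reached 27.97%. The Zfp316 window was the highest of the 6, at 13.7% ± 2.30, with single cytosines up to 33.2%.

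Among the methylated windows, the 6 with the most cytosines were all in coding exons, as were 333 of all 412. They lay in Zfpm1, Dact1, Shroom3, Cdh24, Scaf1 and Plekhh3. Shroom3 encodes an actin-binding protein of epithelial cells, and its window was at 91.6%, 92.5%, 93.6% and 93.1% in the 4 mice. The window of Cdh24, a cadherin, was at 94.7%, 95.3%, 94.5% and 95.5%. That of Scaf1 averaged 95.2% ± 0.934 and that of Plekhh3 84.8% ± 2.06 (SD, n = 4 mice). All 49 cytosines measured in Cdh24 and all 49 in Scaf1 were above 80%. The Zfpm1 window had 85 cytosines, of which 59 were above 80% and 1 was at 1.15%. The latter was low in all 4 mice.

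The intermediate windows nearest to 50% were in Msl3l2, Gpc2, Rasip1, Ihh, Sema6c and Fam171a2. The window of Ihh, which encodes the ligand Indian hedgehog, was at 54.3%, 50.1%, 47.7% and 45.7% in the 4 mice, and its cytosines ranged from 15.98% to 86.0%. The window of Sema6c, a semaphorin, was at 50.5%, 52.5%, 45.7% and 49.1%. That of Rasip1 was at 49.1%, 48.2%, 48.3% and 56.3%, with B6-2 above the other mice. The window in the 3-prime UTR of Fam171a2 averaged 49.1% ± 1.15 (SD, n = 4 mice) while its 21 cytosines ranged from 16.02% to 92.0%. A mean near 50% thus covered cytosines of very different levels. Other genes overlap the windows of Msl3l2 (Tbc1d32) and Gpc2 (Stag3), and the assay does not assign a cytosine to one of them.

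Within windows, cytosines differed least in the unmethylated and most in the intermediate class. In 508 unmethylated windows (74.3%) every cytosine was below 20%, and in 172 methylated windows (41.7%) every cytosine was above 80%. Of the 6094 cytosines in intermediate windows, 14.7% were below 20% and 13.6% above 80%. Cytosines of both kinds stood together in 59 intermediate, 38 methylated and 3 unmethylated windows, and 24 intermediate windows had every cytosine between the bounds. The median SD among the cytosines of a window was 2.24 points in unmethylated, 15.1 in intermediate and 5.52 in methylated windows. The intermediate class was spread along the scale, with 89 windows from 20% to 40%, 72 from 40% to 60% and 91 from 60% to 80%. In methylated windows 48 of 8604 cytosines were below 20% in all 4 mice. Those below 20% in 1 mouse and above 80% in the other 3 numbered 5 in Mixed-1, 1 in Mixed-2 and 0 in each B6 mouse, among them both low values of Dact1. A C-to-T difference from the reference genome also looks unmethylated after bisulfite, and its part in these values was not tested.

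Neighboring windows mostly shared a class. The 1348 windows formed 1129 runs, of which 175 held 2 or more adjacent windows and the longest held 5. Of 219 adjacent pairs, 197 (89.95%) were of one class. Of the 394 windows in runs of 2 or more, 274 were unmethylated, so many pairs would share a class by composition alone. The share expected from composition was not computed. The longest run lay in coding sequence of Zfp316 and was an exception, since its windows went from 13.7% to 63.2%. A run of 4 intronic windows in Auts2, a gene with roles in brain development, stayed between 0.337% and 0.913%. A run of 4 coding windows in Bcl11b, a zinc finger transcription factor of T cells and neurons, stayed between 85.0% and 95.7%.

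Of the 982 genes, 732 held 1 window and 250 held more, and in 182 of the latter all windows were of one class. Unmethylated and methylated windows stood together in 13 genes, which were Ahdc1, Cdh22, Kcp, Lmtk3, Lrfn1, Nrxn2, Pde4dip, Rab11fip4, Rbfox3, Rnf220, Sox13, Speg and Zfhx3. Lmtk3, a kinase gene, and Nrxn2, which encodes the synaptic adhesion protein neurexin 2, were among the genes with most windows, at 6 each. In Lmtk3, 4 adjacent coding windows went from 67.5% to 88.7% along the gene, and farther along the gene a coding window was at 1.83%, 1.56%, 1.36% and 1.31% in the 4 mice. In Nrxn2, a coding window at chr19:6481000-6481499 was at 84.4%, 87.1%, 85.4% and 82.6%, whereas the other 5 windows averaged between 1.38% and 3.29%. Each gene thus held windows near opposite ends of the scale in the same 4 livers.

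Otud7a, a gene of the ovarian tumor family of deubiquitinases, also had 6 windows, 5 of them unmethylated near its 3-prime end and an intronic one at 75.7%. All 5 windows of Adgrb1 (0.515% to 12.1%) and all 5 of Auts2 (0.337% to 3.52%) were unmethylated. Apc2 had 2 unmethylated and 3 intermediate windows, from 10.3% to 66.3%. Cdh22 spanned 2.03% to 87.4%, and Fbrsl1 had no unmethylated window, with levels from 39.2% to 95.2%. The 8 genes with most windows were thus not of one pattern, and ties at 5 windows were broken by name.

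The start of a gene and its body were compared in the 718 genes with dense windows at both. Bodies averaged 45.0% ± 0.150 and starts 2.84% ± 0.0839 (SD, n = 4 mice). The difference was 41.95, 42.36, 42.16 and 42.24 points in the 4 mice. Of the 718 starts, 695 were below 20%. Among the 264 genes whose body windows averaged above 80%, 256 had a start below 20%. The body was higher than the start in 604 genes and lower in 114. The gene Krt10, which encodes a keratin, was the only one with a start above 80%, at 91.6% in 1 window, and its body window was at 0.0773%.

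Developmental transcription factors were mostly unmethylated inside their genes. Their list had 122 windows in 69 genes, of which 102 (83.6%) were unmethylated, 7 intermediate and 13 methylated, with a median of 2.87%. Over all gene-body windows 50.7% were unmethylated and the median was 18.7%. By family, 8 of 8 Pax windows, 5 of 5 Nkx windows, 4 of 4 Irx windows, 9 of 10 Lhx windows, 10 of 11 Tbx windows and 7 of 8 Hox windows were unmethylated. These proteins bind DNA and specify regions and cell types of the embryo. The lowest genes of the list were Nfia, at 0.0544%, 0.137%, 0% and 0% in the 4 mice, and Pitx3, at 0.241% on average. The highest were Prdm11, at 94.7%, and Foxo3, at 93.8%. Bcl11a and Bcl11b had 5 of 5 windows methylated and Cux1 both of its windows (93.8% and 89.5%). Prdm genes held 7 unmethylated, 1 intermediate and 3 methylated windows. Without this list, exonic windows still exceeded intronic ones by 16.4 points.

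Factors with known roles in the liver stood in different classes, and were picked here after their values were seen. Both windows of Foxa1 (6.61% and 2.49%) and the windows of Onecut1 (7.82%) and Onecut2 (1.61%) were unmethylated. A coding window of Gata4, which holds 52 cytosines, was at 53.7%, 55.6%, 53.8% and 53.1% in the 4 mice, while the other 2 windows of the gene were unmethylated. A coding window of Foxa3, a pioneer factor of hepatocytes, was at 35.6%, 40.6%, 34.7% and 36.04%. A coding window of Tbx3 was at 60.4%, 55.7%, 48.5% and 49.4%. The Gata4 window varied little between mice for its level, and the Tbx3 window was higher in both Mixed mice. The latter is no result about strain, since backgrounds failed to overlap, in either direction, in 40.1% of intermediate gene-body windows. The share over all dense windows was 33.8%.

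Of all gene-body windows 30.6% were methylated and the median was 18.7%, against which the next 3 lists can be read. Zinc finger genes had 60 windows in 41 genes, of which 32 (53.3%) were methylated, 14 intermediate and 14 unmethylated, with a median of 82.9%. Zfp334 (96.6%) and Zfp629 (96.3%) were the highest, and Zfp536 (0.748%) and Zfp771 (1.22% over 2 windows) the lowest. Myosins, dyneins and cytoskeletal linkers had 14 of 25 windows methylated, 3 intermediate and 8 unmethylated, with a median of 84.2%. In this list Plec, which encodes the linker protein plectin, had 4 coding windows at 95.5% on average and Kif13a 1 at 95.4%, whereas the 3 windows of Sptbn4, a beta spectrin, averaged 1.36% and the 2 of Shank1 5.05%. Chromatin regulators had 6 methylated, 3 intermediate and 5 unmethylated windows with a median of 70.8%, from Chd2 (0.126%) and Smarcd3 (0.198%) to Arid1b (95.7%) and Arid5b (96.4%).

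Genes of the cell surface were also found in all classes, and 50.7% of all gene-body windows were unmethylated. Ion channels and glutamate receptors had 17 of 27 windows unmethylated, 5 intermediate and 5 methylated, with a median of 7.18%. The potassium channel gene Kcna1 averaged 2.57%, and the calcium channel gene Cacna1i (91.4%) and Kcns1 (94.4%) were highest. Cadherins and the Fat family had 8 of 13 windows unmethylated, 1 intermediate and 4 methylated, with a median of 14.4%. Among them Pcdh10 averaged 1.63% over 3 windows, Dchs1 15.5%, Cdh24 95.0% and Pcdh1 95.4%. Of the 20 windows of Notch, Wnt and LRP receptors and ligands, 10 were unmethylated, 3 intermediate and 7 methylated, with a median of 14.7%. Notch4 (0.158%) and Notch1 (91.2%), which encode receptors of one family, stood at opposite ends. The other extremes were Wnt4 (91.7%) and Ptch1 (0.0982%), a Hedgehog receptor that the list also holds.

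Matrix genes held few windows. Over all gene-body windows 50.7% were unmethylated, 18.7% intermediate and 30.6% methylated, with a median of 18.7%. Collagens had 4 windows in 3 genes, 1 unmethylated in Col8a2 (0.323%), 2 intermediate in Col26a1 (73.1%) and 1 methylated in Col11a2 (81.5%), with a median of 73.1%. Basement membrane and matrix genes had 4 intermediate and 3 methylated windows with a median of 39.7%. All 4 intermediate windows were in Ltbp3, a binding protein of latent TGF-beta, which averaged 35.6%, 32.2%, 31.4% and 33.6% in the 4 mice. Thbs2 (85.9%) and Hspg2 (88.6%), the gene of perlecan, were methylated. The list of liver enzymes, transporters and plasma proteins had 6 unmethylated, 6 intermediate and 4 methylated windows in 14 genes and a median of 41.3%. Its extremes were solute carriers, from Slc16a8 (2.38%) and Slc12a5 (2.92%) to Slc25a51 (91.2%) and Slc25a15 (94.7%). Expression was not examined here, so a place in this list does not mean that a gene is active in the liver. No window fell in the clustered protocadherins. The lists were not tested against each other, and differ in their share of exonic windows.

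The list of imprinted genes, which are expressed from one parental allele in at least some tissues, had 7 windows in 6 genes. Of these windows 1 was unmethylated, 2 intermediate and 4 methylated, with a median of 85.1%, and Zfp64 alone held 2. Over all gene-body windows 50.7% were unmethylated, 18.7% intermediate and 30.6% methylated, with a median of 18.7%. With 7 windows, the counts describe these windows only. The window of H13, in an annotated 3-prime UTR at chr2:152707500-152707999, was at 27.9%, 27.3%, 27.7% and 27.2% in the 4 mice, nearly the same in all mice. The window of Gnas, at chr2:174300000-174300499, was at 49.1%, 46.8%, 32.9% and 39.7%, with both Mixed mice above both B6 mice. Backgrounds failed to overlap, in either direction, in 40.1% of intermediate gene-body windows and 33.8% of all dense windows. The order of the mice in Gnas is thus no result about strain. Zdbf2 (2.34%) was unmethylated, and Kcnq1 (88.9%), Zfp64 (86.5%) and Fam155a (85.6%) were methylated. Reads were not assigned to parental alleles here.

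The 4 livers gave nearly the same class for each window. The class was the same in all mice for 1265 windows (93.8%), and 0 windows were unmethylated in one mouse and methylated in another. By class, 96.5% of unmethylated, 82.5% of intermediate and 96.4% of methylated windows kept their class in every mouse. Pearson's r between mice, across windows, ranged from 0.996 to 0.997 over all 1348 windows and from 0.929 to 0.962 within the 252 intermediate ones. These values are across windows and describe the libraries, since windows are not independent replicates.

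Spread between mice was largest at intermediate levels. The median SD over the 4 mice was 0.511 points in unmethylated, 3.49 in intermediate and 1.29 in methylated windows. The spread that read counting alone would give had medians of 0.406, 1.42 and 0.902 points, and the observed SD was 1.42, 2.54 and 1.40 times it in the median window. Each cytosine was counted as independent, although 1 read can cover several, and reads copied by PCR are not independent either. This counting error is therefore a lower limit, and the ratios to it may be too high. The highest and the lowest mouse differed by over 10 points in 79 of the 252 intermediate windows, in 11 unmethylated and in 2 methylated windows, and by over 20 points in 9 windows, all intermediate. Windows near the bounds can change class with a small change in level, and the closeness to 0% or 100% itself limits the SD of the outer classes.

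The windows with the largest SD were in Niban3, Crocc, Cbx6, Jph3 and Neurl3. All were intermediate and in coding exons, as were 181 of the 252 intermediate windows. Niban3, at chr8:71602000-71602499, was at 44.9%, 25.5%, 12.4% and 12.9% in the 4 mice. Crocc, the gene of the ciliary rootlet protein rootletin, was at 52.3%, 80.8%, 78.0% and 75.9%, so that Mixed-1 alone was low. Cbx6, which encodes a Polycomb protein, was at 72.7%, 61.3%, 59.4% and 45.1%. Jph3, a junctophilin gene, was at 43.7%, 48.6%, 57.4% and 67.4%, and Neurl3, a ubiquitin ligase gene, at 28.9%, 43.8%, 41.7% and 24.4%. In Niban3, Cbx6 and Jph3 the 2 backgrounds did not overlap, and in Crocc and Neurl3 they did. Backgrounds failed to overlap in 33.8% of all dense windows and in 494 of the 1348 gene-body windows (36.6%), so that 3 of 5 windows without overlap is no result about strain. A transcript start of GENCODE lies inside the Niban3 window and at 24 bp from the Jph3 window. These windows were chosen for their spread, so that their values are descriptions.

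**Figure D5:**
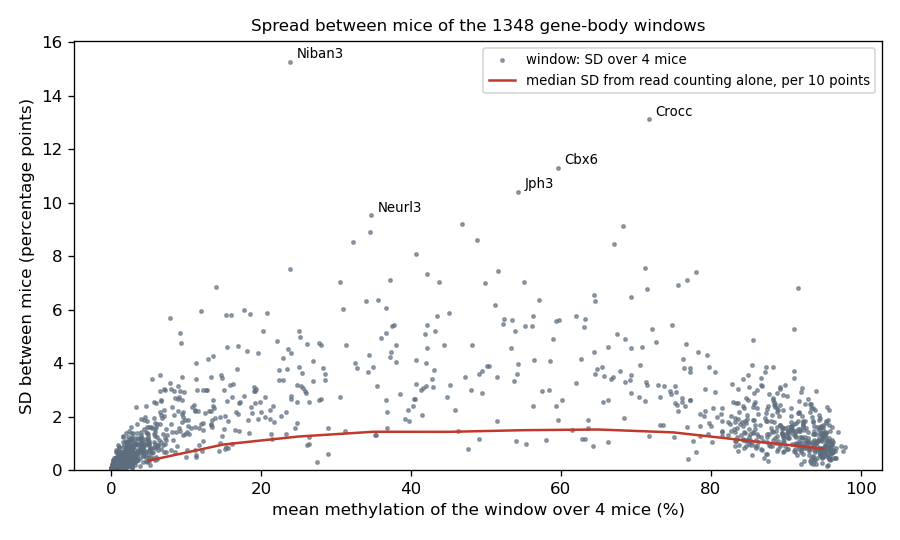
SD between the 4 mice (y axis, percentage points) against the mean methylation (x axis, percent) of each of the 1348 gene-body windows, with the 5 windows of largest SD named. The line is the median SD expected from read counting alone per 10 points of methylation, and most windows of intermediate level lie above it, up to 15.3 points for Niban3.

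The 2 backgrounds were compared last, as groups of mice that also differed in housing and depth. Gene-body windows averaged 39.2% ± 0.249 in the Mixed mice and 39.2% ± 0.0910 in the B6 mice (SD, n = 2 each), a difference of 0.0521 points (two-sided exact permutation test, p = 1, and with 2 mice on each side p cannot be lower than 0.333). The difference was smaller than the spread within the Mixed mice. For single windows, a quasi-binomial model of the reads, fitted to all 19118 dense windows with the overdispersion moderated by limma, called 0 windows when a difference of at least 10 points and a p under 0.05 after Benjamini-Hochberg adjustment were required. The background rate of calls was 0%, and 0 of the 1348 gene-body windows were called, with a smallest adjusted p of 0.692 among them. At an unadjusted p under 0.05 the model gave 175 gene-body windows (12.98%), while the background over all dense windows was 5.11%. With at least 10 points in addition, it gave 9 gene-body windows (0.668%), while the background was 0.162%. These shares are not matched for level, and most of the dense windows were unmethylated windows near a TSS. The limma test of log2 ratios and edgeR had 26 and 37 gene-body windows at an unadjusted p under 0.05. They called 0 windows, which carries no weight, since neither made a call on simulated data of this size. Power of the quasi-binomial model near the limit of 10 points was not tested, so its 0 calls do not exclude such differences.

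None of these 9 windows passed the correction, and all were intermediate. Higher in the Mixed mice were Niban3, by 22.6 points, and Rbpms, by 11.9 points, where Rbpms was at 77.9%, 70.7%, 56.0% and 68.7% in the 4 mice. Lower in the Mixed mice were 7 windows, in Jph3, Nacad, Sod3, Dgkg, St8sia5, Nrap and Otud7a. Sod3, which encodes extracellular superoxide dismutase, was at 15.4%, 20.5%, 32.5% and 27.3%, a difference of -11.97 points. Nacad was at 33.1%, 22.8%, 39.1% and 43.3%, a difference of -13.3 points. With 2 mice on each side, such windows cannot be told apart from the spread between single mice, and the adjusted p was 0.881 for each of the 9 (quasi-binomial model moderated by limma). The median absolute difference between backgrounds was 0.380 points in unmethylated, 3.21 in intermediate and 1.04 in methylated windows, in the order of the spread between mice.

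Coverage set 5 gene-body windows apart, in AY036118, Zc3h7a, Gm36876, Cdk8 and Cmss1. Each had a coverage, summed over its cytosines, of over 50000 in B6-1, whereas the next highest window had 8990. Their levels were 11.96%, 9.29%, 17.8%, 44.4% and 14.04%, and Mixed-2 was the highest mouse in each. Without these windows the difference between exonic and intronic windows was 17.2 points. How far reads from other copies of these sequences enter their counts was not tested.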

How the data were processed

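ERRBS of liver DNA from 2 Mixed and 2 C57BL/6 mice was used, and groups came from the sample labels. The authors mapped single-end reads to mm10 with BSMAP according to the study's methods, while the submitters' processing notes name Bismark and SAMtools, and versions are not given in the sources used here. The authors deposited, for each mouse, the coverage (a count of reads, at least 10) of each CpG cytosine on each strand, and the percent of reads that were C or T. No normalization was applied.

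Autosomal cytosines present in all 4 mice were kept, and all lay on CpGs of the GRCm38 reference. Windows were 500 bp and needed 16 cytosines. Transcripts were all RefSeq models, curated and predicted. Methylated reads were computed as the percent times the coverage at each cytosine and summed over the window. A read thus counts at each cytosine it covers. Means over mice were compared with two-sided exact sign and permutation tests. Windows were tested with a quasi-binomial model moderated by limma 3.58.1, and with edgeR 4.0.16 on read counts as an alternative, under R 4.3.3. These models were tested on simulated data with 2 mice on each side. There the quasi-binomial model found most of the changed windows with no false call, and the limma and edgeR alternatives made no calls. Power for changes near the size limit set for calls, or at the spread of the most variable windows, was not tested. Python 3.11.15, numpy 2.4.6, pandas 2.3.3, scipy 1.17.1 and matplotlib 3.10.9 were used.

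Named windows were the 6 with most cytosines in each outer class, the 6 nearest 50%, the 5 of largest SD, and any called between strains, each 1 per gene. Named genes were the 8 with most windows and, for each of 12 gene lists, the 2 lowest and the 2 highest, of which 1 is not reported here. The members, lists and alternatives were chosen with earlier results of these data known. Same-numbered mice of the 2 strains did not deviate together (correlation -0.0212 over the windows), so the numbers were not used to pair them. Alternatives were other coverage limits, cytosine minimums, transcripts, TSS distances, class bounds, pooled reads, merged strands, other tests and leaving out each mouse. At 10 reads, 1 cytosine is imprecise, and the SDs of means are limited by the number of mice. Errors from counting do not cover PCR copies or cytosines that share a read.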

Additional observations from a re-analysis of the deposited data

Results flagged for a closer look

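In 6 of the 52 values examined in all 4 mice, the gap between one extreme mouse and its nearest neighbor, as a share of the whole range, was above Dixon's critical value of 0.829. Chance alone gives about 1 such value in 20, and over all 1348 windows 78 (5.79%) met the same limit. For the mean level of methylated windows the ratio was 0.934, with Mixed-1 the low mouse at 90.02% against 90.7% to 90.8%. For the share of unmethylated windows it was 0.844, with Mixed-2 low at 49.9% against 50.7% to 50.9%. For the difference between gene-body and intergenic windows it was 0.850, with Mixed-2 high at 18.5 points. Among named windows it was 0.864 for Tbx1, with B6-1 high at 2.04%, 0.896 for Rasip1, with B6-2 high at 56.3%, and 0.837 for Plekhh3, with B6-2 low at 81.7%.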

How the results depend on the processing

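Exonic windows exceeded intronic ones (13.1 to 22.6 points) and gene-body windows exceeded intergenic ones (12.2 to 23.6 points) under each alternative run for them. The strain models, which were not run with merged strands or beyond 5 kb of a TSS, called 0 gene-body windows. The class shares moved with the definition of a window. The unmethylated share, methylated share and mean level were 57.6%, 24.9% and 33.4% with at least 20 reads per cytosine (1000 windows), 36.3%, 42.6% and 51.7% with at least 12 cytosines (2605 windows), and 69.3%, 14.9% and 23.5% with at least 24 (584 windows). They were 54.1%, 28.0% and 36.3% with curated transcripts (1567 windows), 41.4%, 38.6% and 46.9% beyond 5 kb of a TSS (831 windows), and 46.7%, 34.8% and 43.0% beyond 2 kb of GENCODE starts too (855 windows, chosen after seeing the data). With class bounds of 10% and 90% the shares were 43.9% and 18.01%, and with reads pooled over the window the mean was 39.0%. The cause of these moves beyond the change of windows was not tested. The Mixed minus B6 difference changed sign to -0.0279 points with pooled reads, -0.0139 with 12 cytosines and -0.128 beyond 5 kb, and ranged from -0.124 to 0.228 without each mouse in turn, below 0 without Mixed-2 or B6-1. With the replicate number as a block it was 0.0521, from -0.0595 and 0.164 in the pairs, and the block left 36 windows at an unadjusted p under 0.05 in place of 175. Without each mouse in turn, the unmethylated share was 50.5% to 50.8%, the methylated share 30.6% to 30.9%, the mean 39.1% to 39.2%, the exon to intron difference 17.1 to 17.2 points, the intergenic difference 18.1 to 18.3, and the median SD of intermediate windows 3.02 to 3.496 points. Of 90 values of named windows under other settings, 2 moved by more than 1 SD, both of Fam171a2 (45.0% and 47.0%).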
